A study of Mus musculus with 6 samples.

Results

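The Hox genes encode homeodomain transcription factors that lie in 4 clusters in mammals, Hoxa to Hoxd, and are numbered into 13 paralogue groups by their place in the cluster. Members were taken by name, as every protein-coding gene whose mouse symbol is Hoxa, Hoxb, Hoxc or Hoxd followed by a number. In all, 39 such genes are annotated, and all 39 stand among the 25006 genes of the count tables. The family itself was chosen with earlier results of these data known. In embryos, genes at the low-numbered end of a cluster are active in anterior tissue and genes at the high-numbered end in posterior tissue, and Polycomb and trithorax proteins keep that state through cell divisions. In the female reproductive tract, Hoxa9, Hoxa10, Hoxa11 and Hoxa13 mark successive segments of the Mullerian duct, the embryonic tube that gives rise to oviduct, uterus and upper vagina. HOX proteins bind DNA together with cofactors of the TALE homeodomain class, the PBX, MEIS and PKNOX proteins, and retinoic acid is a classical inducer of the low-numbered genes.

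RNA sequencing compared the stable line MOSE-PAX8, which overexpresses the paired-box transcription factor PAX8, with the stable line MOSE-NEO, with 3 libraries of each. Both lines derive from mouse ovarian surface epithelial (MOSE) cells, the single layer of cells that covers the ovary, and both were kept in G418 at 0.05 mg/mL, the drug that selects for a neomycin resistance gene. The labels name 1 cell line per group, so every difference below is a difference between these 2 lines, and whether a line's 3 libraries stem from separate cultures is not stated. No source used here names the promoter that drives PAX8 or says whether a line is a clone or a pool of cells.

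Library totals were 30621528 to 36367825 counts in MOSE-PAX8 and 23623762 to 32057173 counts in MOSE-NEO. Pax8 itself had 2570, 2973 and 3544 counts in MOSE-PAX8 libraries 1 to 3, against 0, 1 and 1 in MOSE-NEO libraries 1 to 3, as the labels have it. Of the 17 markers of ovarian surface and mesothelium that were listed, each had a count in at least 1 library, with Krt18 (583 CPM in MOSE-PAX8, 661 CPM in MOSE-NEO), Wt1 (721 and 1175 CPM) and Msln (252 and 271 CPM) well above 0, while Krt8 (0.317 and 0.787 CPM) and Krt19 (0.405 and 0.278 CPM) were near 0. Lhx9 had 26 counts over all 6 libraries, and Aldh1a2 had 1 count in MOSE-PAX8 and 3466 in MOSE-NEO. CPM here is the count of a gene scaled to the total of its library, with TMM factors. One library of each line stood apart: MOSE-PAX8 library 2 and MOSE-NEO library 1 had 0.33% and 0.317% of counts on lincRNA genes, and the remaining 4 libraries 0.146% to 0.195%. Results that rest on these libraries are given with and without both of them. These are bulk measurements, in which fewer cells that express a gene and less RNA of it per cell cannot be told apart.

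Of the 39 genes, 28 could be tested. Of these, 8 were called at an adjusted p below 0.05 in edgeR's quasi-likelihood test (28.6%, against 33.9% of all tested genes). The promoter stretches of 5 of these 8 are in the RefSeq table for build GRCm38.p6, and Hoxb3, Hoxb13 and Hoxc13 are named only. The stretches are shown because they are start regions of called genes. Each stretch runs from 250 bases before to 50 bases after the annotated start, 5′ to 3′ on the strand of the gene. Capitals mark a match, on either strand, to 1 of 4 words: TGATTNAT (the joint PBX and HOX site), TATAAA (the TATA box), CCAAT (the site of NF-Y) and GGGCGG (the site of Sp1). No match in these stretches overlaps a match to another word. Hoxa10 has 2 annotated starts. The Hoxa7 and Hoxa9 stretches lie inside their genes, whose outer ends are at chr6:52221854 and chr6:52231089. They are therefore inner starts, and no stretch at the outer end of either gene was listed.
Hoxa7, chr6:52218524-52218823, minus strand: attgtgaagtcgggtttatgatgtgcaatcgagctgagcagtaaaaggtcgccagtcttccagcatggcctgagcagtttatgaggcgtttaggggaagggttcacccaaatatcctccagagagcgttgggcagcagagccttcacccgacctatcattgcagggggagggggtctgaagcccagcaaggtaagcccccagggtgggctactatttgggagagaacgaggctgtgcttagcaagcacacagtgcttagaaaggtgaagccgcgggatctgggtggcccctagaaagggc
Hoxa9, chr6:52227321-52227620, minus strand: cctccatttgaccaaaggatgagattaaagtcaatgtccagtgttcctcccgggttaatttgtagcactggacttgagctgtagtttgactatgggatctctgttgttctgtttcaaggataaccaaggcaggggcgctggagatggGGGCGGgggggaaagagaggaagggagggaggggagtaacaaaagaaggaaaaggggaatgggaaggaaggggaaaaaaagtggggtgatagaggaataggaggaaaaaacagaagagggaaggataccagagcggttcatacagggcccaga
Hoxa10, inner start, chr6:52234890-52235189, minus strand: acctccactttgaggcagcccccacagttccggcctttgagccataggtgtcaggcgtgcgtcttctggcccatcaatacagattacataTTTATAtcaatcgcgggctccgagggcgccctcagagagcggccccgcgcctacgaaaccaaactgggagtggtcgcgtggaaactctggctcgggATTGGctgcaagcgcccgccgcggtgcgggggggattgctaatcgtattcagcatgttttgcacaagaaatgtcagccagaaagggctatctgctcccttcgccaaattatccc
Hoxa10, outer start, chr6:52240805-52241104, minus strand: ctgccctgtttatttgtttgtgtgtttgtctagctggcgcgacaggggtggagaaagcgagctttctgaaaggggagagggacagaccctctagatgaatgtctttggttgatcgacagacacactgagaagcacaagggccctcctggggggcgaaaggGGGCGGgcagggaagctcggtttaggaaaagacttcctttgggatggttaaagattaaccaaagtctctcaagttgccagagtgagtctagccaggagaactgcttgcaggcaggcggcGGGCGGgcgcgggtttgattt
Hoxd8, chr2:74704365-74704664, plus strand: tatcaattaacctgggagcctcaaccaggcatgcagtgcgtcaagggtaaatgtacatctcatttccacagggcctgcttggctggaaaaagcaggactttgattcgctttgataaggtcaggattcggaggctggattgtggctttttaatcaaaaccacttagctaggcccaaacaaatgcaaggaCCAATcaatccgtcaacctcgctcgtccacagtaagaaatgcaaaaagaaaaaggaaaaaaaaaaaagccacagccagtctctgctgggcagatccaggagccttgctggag
Hoxd9, chr2:74697513-74697812, plus strand: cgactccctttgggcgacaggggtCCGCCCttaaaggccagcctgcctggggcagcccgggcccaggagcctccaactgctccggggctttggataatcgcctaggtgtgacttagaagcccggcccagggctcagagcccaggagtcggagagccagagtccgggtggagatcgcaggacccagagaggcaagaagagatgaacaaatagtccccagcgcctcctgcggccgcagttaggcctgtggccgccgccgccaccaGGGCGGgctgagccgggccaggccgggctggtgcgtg
The inner Hoxa10 stretch holds 1 TATAAA and 1 CCAAT match, the outer one 2 GGGCGG matches, Hoxa9 1 GGGCGG, Hoxd8 1 CCAAT and Hoxd9 2 GGGCGG. The Hoxa7 stretch holds none of these words, and TGATTNAT is in none of the 6. Of all 32851 promoters in the table, 3.22% hold TGATTNAT, 13.6% TATAAA, 37.4% CCAAT and 35.7% GGGCGG. Of the 24 promoters listed for 22 of the 39 Hox genes, 2 hold TGATTNAT, 4 TATAAA, 15 CCAAT and 10 GGGCGG. The Hox promoters had a median of 14.5 CG dinucleotides and 57.7% G and C, against 7 and 52.7% over all promoters. Among the stretches printed, CG dinucleotides numbered 21 in the inner Hoxa10 start, 12 in the outer one, 20 in Hoxd9, 9 in Hoxa7, 6 in Hoxd8 and 4 in Hoxa9. A match is a description of the letters and no record of binding.

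Of the 39 genes, 32 had at least 1 count and 7 had none in any library: Hoxa11, Hoxa13, Hoxd4, Hoxd10, Hoxd11, Hoxd12 and Hoxd13. A count of 0 allows a level of up to 0.082 to 0.13 CPM in a library (3 counts of its total, counting error only). Hoxd4 shares most of its exon length with other genes, among them Hoxd3 (only 47.7% is its own), and how reads from shared exons were assigned is not stated in the labels. Hoxb1 had 1 count, in MOSE-PAX8 library 2, and Hoxc11 had 1 count, in MOSE-NEO library 2. Hoxb2 had 22 counts over the MOSE-PAX8 libraries and 13 over the MOSE-NEO libraries, a ratio of 1.42 (95% counting interval 0.684 to 3.07). Hoxd1 had 15 and 14 counts, a ratio of 0.899 (0.405 to 2.01). Those 11 genes were too low to be tested, and the other 28 entered the test. The silent stretch of the Hoxd cluster thus ran from Hoxd10 to Hoxd13, and that of the Hoxa cluster took in Hoxa11 and Hoxa13, whereas Hoxb13 and Hoxc13 of the same paralogue group were detected in every library.

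The 4 clusters together summed to 598, 603 and 568 CPM in MOSE-PAX8 libraries 1 to 3, against 809, 775 and 741 CPM in MOSE-NEO libraries 1 to 3. All 3 MOSE-PAX8 sums lay below all 3 MOSE-NEO sums. Most of that gap came from the Hoxd cluster, which summed to 293 ± 15.3 CPM in MOSE-PAX8 and 433 ± 13.3 CPM in MOSE-NEO (SD, n = 3 each). Within it, Hoxd8 averaged 239 ± 29.7 CPM in MOSE-PAX8 and 335 ± 17 CPM in MOSE-NEO. Hoxd3 averaged 31.2 ± 18.2 and 64.9 ± 31.4 CPM, but its libraries overlapped between the lines and it was not called. The Hoxb genes summed to 121 ± 9.06 and 141 ± 12 CPM, the Hoxc genes to 119 ± 9.6 and 137 ± 9.32 CPM, and the Hoxa genes to 56.9 ± 4.34 and 63.5 ± 5.35 CPM, in MOSE-PAX8 and MOSE-NEO. For Hoxa and Hoxc the sums of the 2 lines overlapped, and for Hoxb they came as close as 131 CPM in MOSE-PAX8 library 2 and 132 CPM in MOSE-NEO library 3. One gene, Hoxd8, made up 40.6% of all Hox CPM in MOSE-PAX8 and 43.2% in MOSE-NEO, followed by Hoxb9 with 12.8% and 11%.

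Per length (RPKM, the CPM per kilobase of exon), the order of levels over all exons was led by the same 3 genes in both lines. Hoxd8 averaged 87.1 RPKM in MOSE-PAX8 and 122 RPKM in MOSE-NEO, Hoxb9 29.3 and 33.1 RPKM, and Hoxc13 14.4 and 19.3 RPKM. The third place depended on the length used. Over the longest transcript it went to Hoxc8 in MOSE-PAX8 (16.2 RPKM) and to Hoxd3 in MOSE-NEO (21.9 RPKM). Over the exon length free of other genes Hoxd3, at 20 RPKM in MOSE-PAX8 and 41.7 RPKM in MOSE-NEO, stood above Hoxc13 in both lines and above Hoxb9 in MOSE-NEO. These Hoxd3 values are too high if reads from shared exons were counted for the gene, which is not stated. In MOSE-PAX8 the next over all exons were Hoxc8 (12.7 RPKM, whose libraries overlapped those of Hoxc13), Hoxd9 (10.3 RPKM) and Hoxa7 (9.48 RPKM). In MOSE-NEO they were Hoxd9 (15.8 RPKM), Hoxd3 (15.5 RPKM), Hoxc8 (12.1 RPKM) and Hoxc6 (11.6 RPKM), each overlapping its neighbour in the order. Hoxa10 and Hoxa7 held different places in the lines. Hoxa10 ranked 20 in MOSE-PAX8 with 1.37 RPKM, against 9 in MOSE-NEO with 6.76 RPKM, and Hoxa7 ranked 6 in MOSE-PAX8 with 9.48 RPKM, against 11 in MOSE-NEO with 5.94 RPKM.

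**Figure D1:**
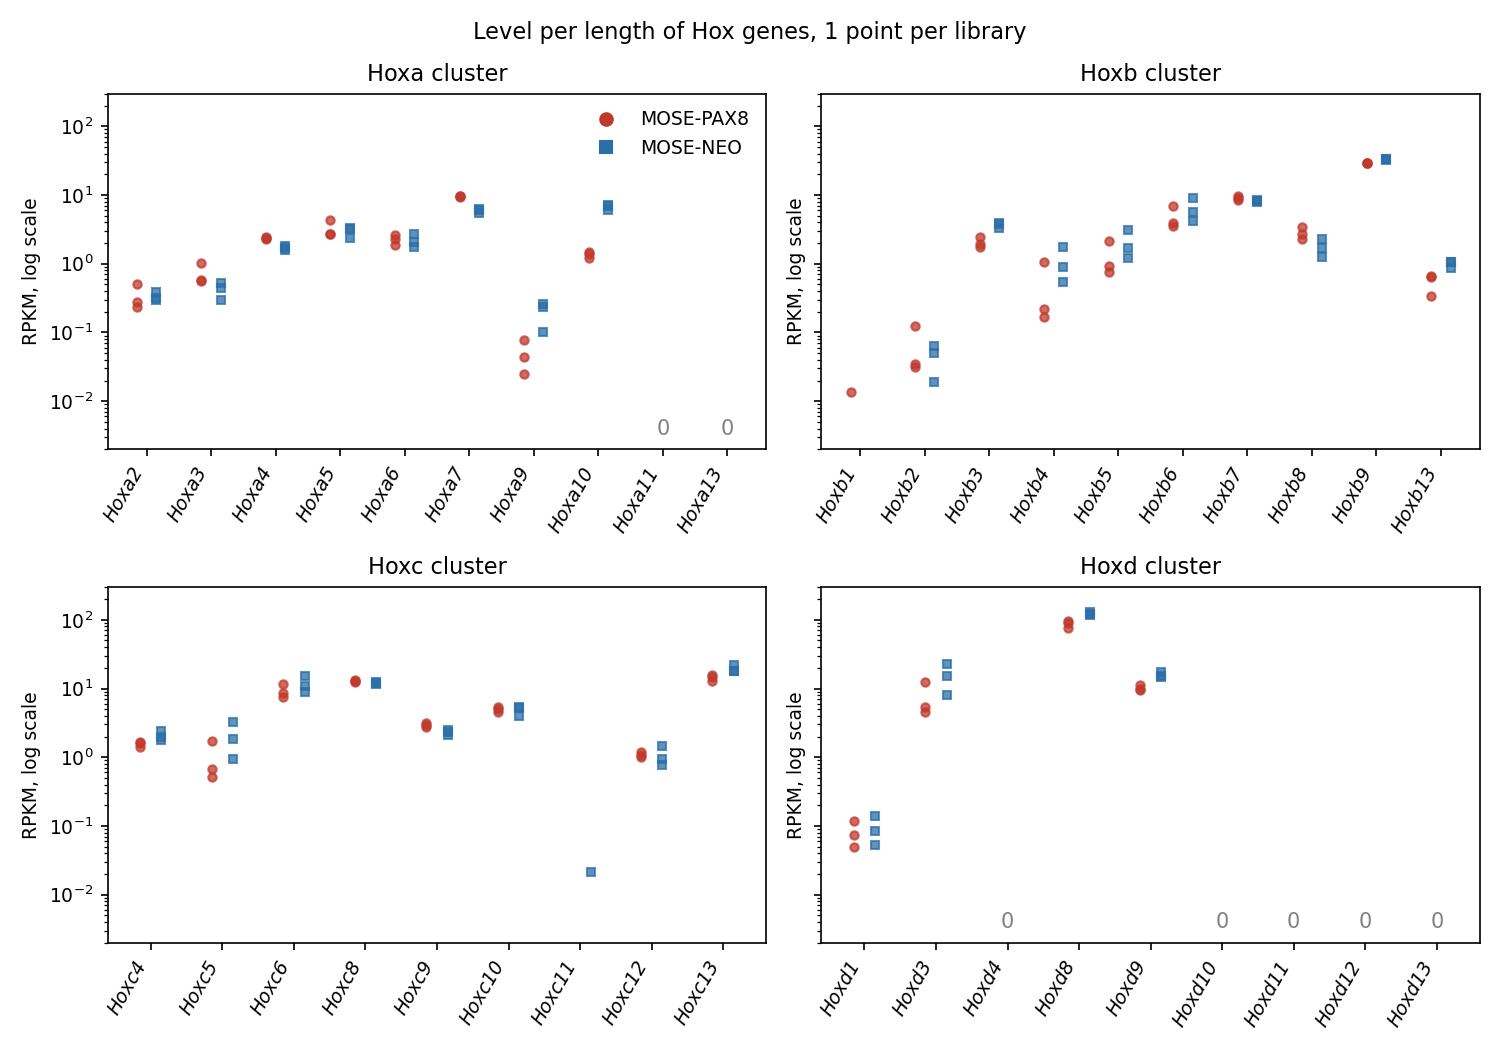
RPKM of the Hox genes, by cluster and paralogue number, in every MOSE-PAX8 and MOSE-NEO library (1 point each), on a log scale with genes at 0 in all libraries marked 0. Hoxd8 leads in both lines, with means of 87.1 RPKM in MOSE-PAX8 and 122 RPKM in MOSE-NEO, and Hoxa11, Hoxa13, Hoxd4 and Hoxd10 to Hoxd13 are at 0 in all 6 libraries.

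Between the lines, 8 of the 28 tested Hox genes were called at an adjusted p below 0.05 (28.6%), 1 of them higher and 7 lower in MOSE-PAX8. Over all 12313 tested genes, 33.9% were called, 17.9% higher and 16.1% lower. The share of Hox genes called was therefore near that of all genes, with 3.57% higher and 25% lower. With upper-quartile factors the split was 3 higher and 6 lower, and with DESeq2 it was 3 and 7. With 1 library left out at a time, 5 to 12 Hox genes were called, 4 to 11 of them lower, with 5 without MOSE-PAX8 library 3 or MOSE-NEO library 2 and 12 without MOSE-PAX8 library 2. The median log2 fold change of MOSE-PAX8 over MOSE-NEO was -0.30 over the 28 Hox genes and 0.01 over all tested genes, and the median absolute log2 fold change was 0.45 and 0.24. The libraries of the lines did not overlap for 15 of the 28 Hox genes (53.6%), 6 of them higher and 9 lower in MOSE-PAX8, against 47.6% of all tested genes. By position, 5 of the 9 tested genes of paralogue groups 9 to 13 were called lower and none higher, among them Hoxa9, which passed the low-count filter through MOSE-NEO alone and could be called in this direction only. Of the 14 tested genes of groups 4 to 8, 1 was called in each direction, and of the 5 tested genes of groups 1 to 3, 1 was called lower.

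**Figure D2:**
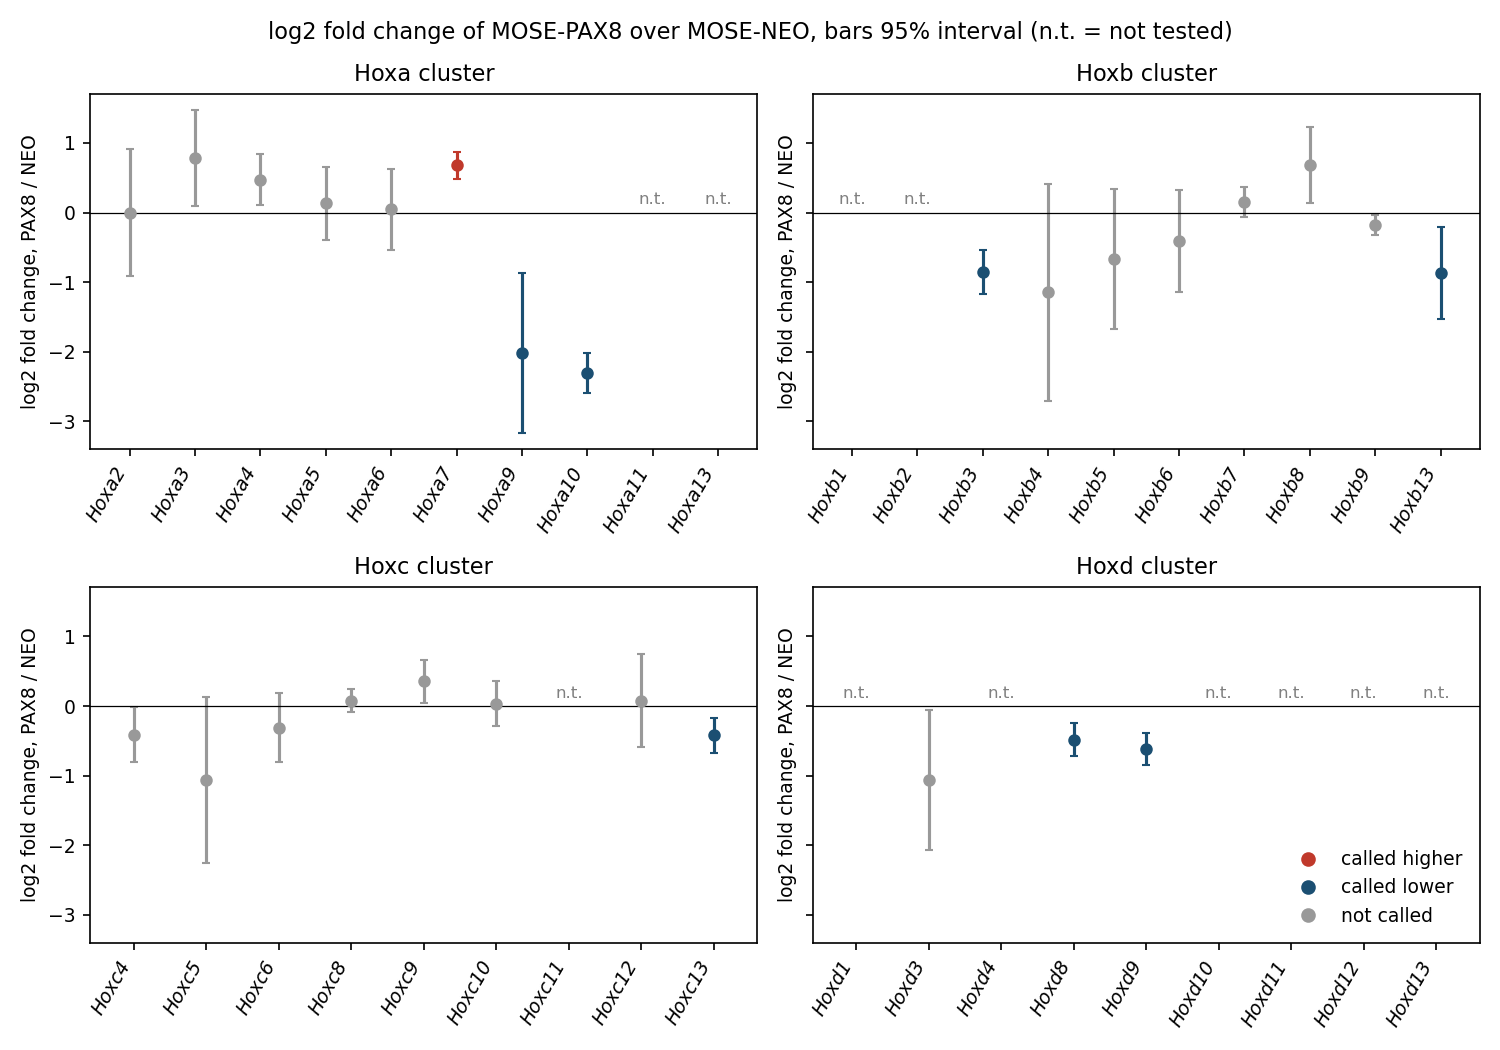
log2 fold change of MOSE-PAX8 over MOSE-NEO for Hox genes in cluster order, with its 95% interval and its call. Hoxa7 is the gene called higher (0.68), and Hoxa9 (-2.02) and Hoxa10 (-2.31), the next genes along the same cluster, lie farthest below 0.

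In the Hoxa cluster, neighbours differed in opposite directions. Hoxa10 (ENSMUSG00000000938, chr6:52231197-52240854, minus strand), which patterns the uterus and is needed for implantation in mice, had 3.96, 4.59 and 4.87 CPM in MOSE-PAX8 libraries 1 to 3, against 19.8, 23.7 and 22.9 CPM in MOSE-NEO libraries 1 to 3. Every MOSE-PAX8 library was far below every MOSE-NEO library, with counts of 145 to 158 in MOSE-PAX8 and 545 to 690 in MOSE-NEO. The gene was 4.94-fold lower in MOSE-PAX8 (log2 fold change -2.31, SE 0.12; adjusted p = 5.63e-06, edgeR's quasi-likelihood test with Benjamini-Hochberg adjustment). It was the only Hox gene past a test against a fold of 1.5 (adjusted p = 1.36e-05, edgeR), and it was called under all 16 alternatives that were run.

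Hoxa9 (ENSMUSG00000038227, chr6:52223100-52231089, minus strand), which marks the oviduct segment of the Mullerian duct, stood at 0.137, 0.44 and 0.246 CPM in MOSE-PAX8 libraries 1 to 3, against 1.46, 1.3 and 0.564 CPM in MOSE-NEO libraries 1 to 3. The groups did not overlap, but the highest MOSE-PAX8 and the lowest MOSE-NEO library were close, and the level was low in both lines, with 5, 14 and 8 counts in MOSE-PAX8 and 46, 30 and 17 in MOSE-NEO. Hoxa9 was 4.04-fold lower in MOSE-PAX8 (log2 fold change -2.02, SE 0.50; adjusted p = 0.015, edgeR). It passed the low-count filter through MOSE-NEO alone, so it could be called in 1 direction only. The call was lost without MOSE-PAX8 library 3 (adjusted p = 0.0569), MOSE-NEO library 1 (0.0567) or MOSE-NEO library 2 (0.0509) in the edgeR fit.

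Hoxa7 (ENSMUSG00000038236, chr6:52214491-52221854, minus strand), a gene of trunk patterning, had 27.7, 26.7 and 27.4 CPM in MOSE-PAX8 libraries 1 to 3, against 15.8, 18.1 and 17.3 CPM in MOSE-NEO libraries 1 to 3. All 3 MOSE-PAX8 libraries were above all 3 MOSE-NEO libraries, with little spread within a line. Hoxa7 was 1.6-fold higher in MOSE-PAX8 (log2 fold change 0.68, SE 0.08; adjusted p = 0.000466, edgeR). With the median fold change of neighbouring genes within 5 Mb removed, the log2 fold change was 0.60 (adjusted p = 0.00105, edgeR). Of the Hoxa7 exon length, 79.6% is free of other genes, the rest being shared with Hoxaas3, a noncoding gene on the other strand. Hoxaas3 averaged 0.68 ± 0.342 CPM in MOSE-PAX8 and 0.293 ± 0.214 CPM in MOSE-NEO (SD, n = 3 each). Its log2 fold change was 1.15, and it was not called. Without a stated strand setting the reads of the pair cannot be told apart. The part of shared reads in the Hoxa7 difference was not tested. The 95% intervals of the log2 fold changes of Hoxa7 (0.49 to 0.87) and Hoxa10 (-2.59 to -2.02) lay on opposite sides of 0.

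Hoxa2 to Hoxa6 did not pass the test. Hoxa3 had 3.47, 6.16 and 3.42 CPM in MOSE-PAX8 libraries 1 to 3, against 2.67, 3.17 and 1.76 CPM in MOSE-NEO libraries 1 to 3, and Hoxa4 had 3.66, 3.77 and 3.88 CPM, against 2.86, 2.56 and 2.72 CPM. Neither gene's libraries overlapped between the lines, and both were higher in every MOSE-PAX8 library. Their adjusted p-values were 0.0796 (log2 fold change 0.79, SE 0.30) and 0.0524 (0.47, SE 0.16) in edgeR's quasi-likelihood test, just outside the threshold. Hoxa2, Hoxa5 and Hoxa6 overlapped between the lines, with log2 fold changes of 0.00, 0.13 and 0.05 and standard errors of 0.40, 0.23 and 0.25. Their 95% intervals still allow differences of 0.53 or more in either direction for Hoxa2 and Hoxa6, and of -0.39 to 0.66 for Hoxa5, so equality was not shown.

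Hoxd8 and Hoxd9 were lower in MOSE-PAX8. Hoxd8 (ENSMUSG00000027102, chr2:74704615-74707933, plus strand), by far the most abundant Hox transcript of these cells, had 267, 208 and 243 CPM in MOSE-PAX8 libraries 1 to 3, against 319, 331 and 353 CPM in MOSE-NEO libraries 1 to 3. The groups did not overlap. Hoxd8 was 1.4-fold lower in MOSE-PAX8 (log2 fold change -0.48, SE 0.10; adjusted p = 0.00705, edgeR). Hoxd9 (ENSMUSG00000043342, chr2:74697727-74700208, plus strand), the neighbouring gene and a member of the same paralogue group as Hoxa9, had 24.3, 21.3 and 20.6 CPM in MOSE-PAX8 libraries 1 to 3, against 32.6, 31.9 and 37 CPM in MOSE-NEO libraries 1 to 3. The 2 sets of libraries were again apart. Hoxd9 was 1.53-fold lower in MOSE-PAX8 (log2 fold change -0.62, SE 0.10; adjusted p = 0.00167, edgeR).

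**Figure D3:**
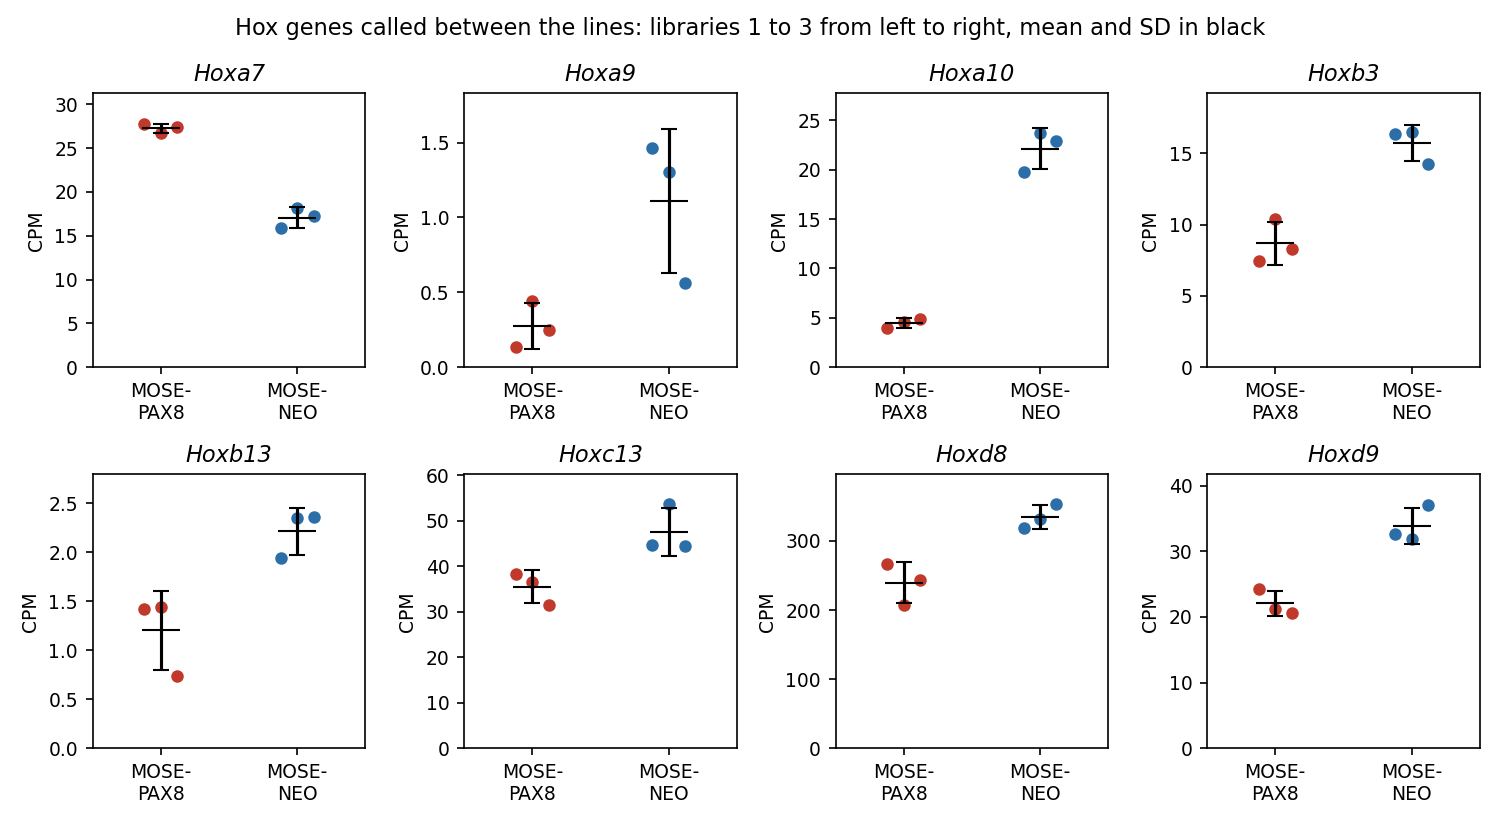
CPM of the 8 called Hox genes in each library, with the mean and SD of each line (n = 3), each panel on its own scale from 0. The libraries of the lines do not overlap in any panel, and the gap is widest in proportion for Hoxa10, at 3.96 to 4.87 CPM in MOSE-PAX8 against 19.8 to 23.7 CPM in MOSE-NEO.

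In the Hoxb cluster 2 genes near opposite ends were lower in MOSE-PAX8. Hoxb3 (ENSMUSG00000048763, chr11:96323326-96347930, plus strand), a gene of hindbrain and blood development, had 7.44, 10.4 and 8.29 CPM in MOSE-PAX8 libraries 1 to 3, against 16.4, 16.5 and 14.3 CPM in MOSE-NEO libraries 1 to 3. The groups were well apart. Hoxb3 was 1.81-fold lower in MOSE-PAX8 (log2 fold change -0.85, SE 0.14; adjusted p = 0.00197, edgeR). Only 47.1% of its exon length is free of other genes, the rest being shared with the antisense gene Hoxb3os, and without a stated strand setting the reads of the pair cannot be told apart.

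Hoxb13 (ENSMUSG00000049604, chr11:96194316-96197447, plus strand), known for its role in the prostate, had 1.42, 1.45 and 0.739 CPM in MOSE-PAX8 libraries 1 to 3, against 1.94, 2.35 and 2.36 CPM in MOSE-NEO libraries 1 to 3. MOSE-PAX8 library 3 was the lowest, and the groups did not overlap. Hoxb13 was 1.83-fold lower in MOSE-PAX8 (log2 fold change -0.87, SE 0.29; adjusted p = 0.0467, edgeR), just inside the threshold, and it lost the call in 10 of 16 alternatives. Leaving out any 1 library other than MOSE-PAX8 library 2 gave adjusted p-values of 0.0606 to 0.138 in the edgeR fit.

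Hoxb9, the second most abundant Hox gene, had 75.3, 74.7 and 76.2 CPM in MOSE-PAX8 libraries 1 to 3, against 85.9, 83.3 and 86 CPM in MOSE-NEO libraries 1 to 3. All 3 MOSE-PAX8 libraries were below the MOSE-NEO ones, but the difference was small (log2 fold change -0.17, SE 0.06; adjusted p = 0.0666, edgeR) and not called. Hoxb8 had 6.04, 8.95 and 7.06 CPM in MOSE-PAX8 libraries 1 to 3, against 5.97, 4.43 and 3.25 CPM in MOSE-NEO libraries 1 to 3. Its groups touched at 6.04 and 5.97 CPM without overlapping (log2 fold change 0.69, SE 0.24; adjusted p = 0.0562, edgeR). Hoxb7, next to it, averaged 14.1 ± 0.877 CPM in MOSE-PAX8 and 12.6 ± 0.48 CPM in MOSE-NEO (SD, n = 3 each) and was not called (log2 fold change 0.16, 95% interval -0.06 to 0.37).

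Of the Hoxc genes, Hoxc13 was called. Hoxc13 (ENSMUSG00000001655, chr15:102921103-102928814, plus strand), known for its role in hair and nails, had 38.4, 36.6 and 31.4 CPM in MOSE-PAX8 libraries 1 to 3, against 44.6, 53.5 and 44.3 CPM in MOSE-NEO libraries 1 to 3. The lines did not overlap, and MOSE-NEO library 2 was the highest. Hoxc13 was 1.34-fold lower in MOSE-PAX8 (log2 fold change -0.42, SE 0.11; adjusted p = 0.0172, edgeR), and the call was lost without MOSE-PAX8 library 3 (0.0708) or MOSE-NEO library 2 (0.0568). Hoxc8, the most abundant gene of this cluster beside it, differed little, with 37.2, 36.1 and 35 CPM in MOSE-PAX8 libraries 1 to 3 and 33.2, 33.7 and 35.7 CPM in MOSE-NEO libraries 1 to 3. Its 95% interval of the log2 fold change, -0.09 to 0.25, is among the narrowest of the 28 genes. Hoxc9 had 7.66, 6.66 and 7.27 CPM in MOSE-PAX8 libraries 1 to 3, against 5.11, 5.65 and 6.14 CPM in MOSE-NEO libraries 1 to 3, without overlap and without a call (adjusted p = 0.0788, edgeR). Hoxc4 averaged 3.99 ± 0.358 CPM in MOSE-PAX8 and 5.3 ± 0.862 CPM in MOSE-NEO, Hoxc10 9.57 ± 0.789 and 9.35 ± 1.42 CPM, and Hoxc12 1.12 ± 0.0922 and 1.08 ± 0.356 CPM (SD, n = 3 each), none of them called.

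Set by paralogue group, the members of a group did not all differ alike. In group 10, Hoxa10 was called lower, while Hoxc10 was not called and its 95% interval of the log2 fold change, -0.29 to 0.36, does not reach that of Hoxa10. In group 9, Hoxa9 and Hoxd9 were called lower, and Hoxb9 and Hoxc9 were not called, with log2 fold changes of -0.17 and 0.35. In group 13, both members with counts, Hoxb13 and Hoxc13, were called lower. In group 7, Hoxa7 was called higher and Hoxb7 had a log2 fold change of 0.16. In group 8, Hoxd8 was called lower, and Hoxb8 and Hoxc8 were not called, with log2 fold changes of 0.69 and 0.08. Summed over its members, group 10 had 14 ± 1.25 CPM in MOSE-PAX8 and 31.5 ± 3.5 CPM in MOSE-NEO, group 13 had 36.7 ± 3.98 and 49.7 ± 5.36 CPM, and group 7 had 41.4 ± 1.26 and 29.7 ± 0.683 CPM (SD, n = 3 each). The differences between paralogues were not tested.

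A second set of Hox genes varied widely within each line. Hoxd3 (chr2:74711927-74748442, plus strand) had 18.8, 52 and 22.7 CPM in MOSE-PAX8 libraries 1 to 3, against 96.6, 64.2 and 33.8 CPM in MOSE-NEO libraries 1 to 3. The highest value of each line was in its lincRNA-rich library, MOSE-PAX8 2 and MOSE-NEO 1, and the lines overlapped (log2 fold change -1.06, SE 0.44; adjusted p = 0.0995, edgeR). Only 37.2% of the Hoxd3 exon length is free of Hoxd4 and noncoding genes such as Haglr. Hoxc5 had 2.05, 5.31 and 1.6 CPM in MOSE-PAX8 libraries 1 to 3, against 9.97, 5.65 and 2.95 CPM in MOSE-NEO libraries 1 to 3. Hoxb4 had 0.437, 2.73 and 0.555 CPM in MOSE-PAX8 libraries 1 to 3, against 4.45, 2.3 and 1.39 CPM in MOSE-NEO libraries 1 to 3. For both, MOSE-PAX8 library 2 and MOSE-NEO library 1 were again the highest of their lines. Hoxb5 had 2.08, 5.91 and 2.62 CPM in MOSE-PAX8 libraries 1 to 3, against 8.54, 4.74 and 3.42 CPM in MOSE-NEO libraries 1 to 3. Hoxb6 averaged 9.45 ± 3.56 CPM in MOSE-PAX8 and 12.4 ± 5.03 CPM in MOSE-NEO, and Hoxc6 22.5 ± 5.31 and 27.9 ± 7.73 CPM (SD, n = 3 each), with the same library highest in each line. None of these 6 genes was called in the fit of all libraries, though Hoxd3 passed with no low-count filter (adjusted p = 0.0429, edgeR).

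The lincRNA-rich library was set against the mean of the other 2 of its line as a ratio. For Hoxb4 this ratio was 5.51 in MOSE-PAX8 and 2.4 in MOSE-NEO, for Hoxc5 2.91 and 2.32, for Hoxb5 2.52 and 2.09, and for Hoxd3 2.51 and 1.97. Across the 28 tested Hox genes the log ratios of the 2 lines had a Pearson r of 0.84 (Spearman rho 0.75), and across all 12313 tested genes 0.63 (rho 0.54), computed with 0.1 CPM added. This is a description across genes that share the same 6 libraries and their depths, and genes are not independent replicates. With that addition, 9 of the 28 Hox genes (32.1%) had a ratio above 1.25 in both lines, against 8.75% of all tested genes: Hoxa6, Hoxa9, Hoxb4, Hoxb5, Hoxb6, Hoxb8, Hoxc5, Hoxc6 and Hoxd3. Of the called genes, Hoxa9 is on that list and the other 7 are not. The part of the lincRNA share in these values was not tested.

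**Figure D4:**
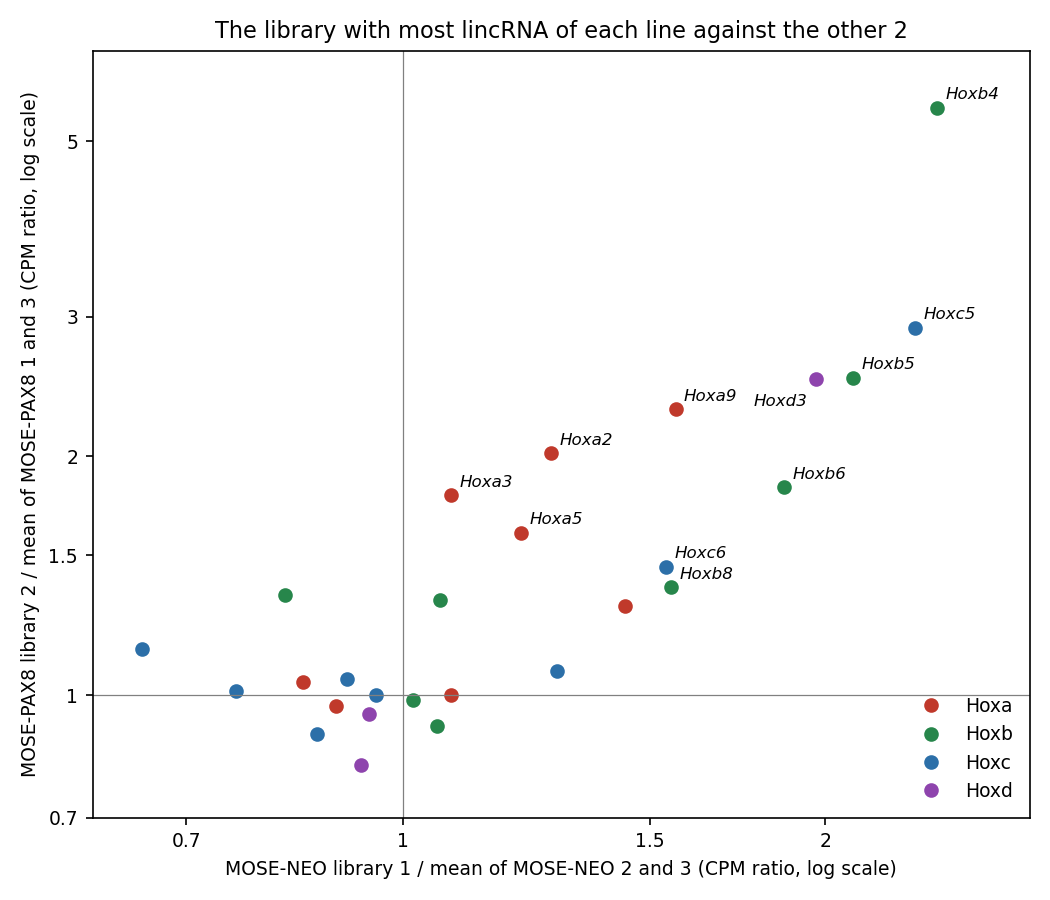
For tested Hox genes, the CPM of MOSE-PAX8 library 2 over the mean of MOSE-PAX8 libraries 1 and 3 (vertical) against the CPM of MOSE-NEO library 1 over the mean of MOSE-NEO libraries 2 and 3 (horizontal), both on log scales, coloured by cluster. Hoxb4 (5.51 and 2.4), Hoxc5, Hoxb5 and Hoxd3 lie at the upper right, while Hoxd8 and Hoxd9 lie below 1 on both axes.

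Without both lincRNA-rich libraries, 11 of the 28 Hox genes were called, 9 of them lower in MOSE-PAX8 and 2 higher. Over all genes that fit called 3559, 1834 higher and 1725 lower, against 4178 (2199 higher, 1979 lower) with all 6 libraries. The low-count filter was rerun for that fit and its number of tested genes is not given here. The share called over all genes therefore cannot be set beside the Hox count. Hoxb4 (log2 fold change -1.89, adjusted p = 0.0136), Hoxc5 (-1.22, 0.044), Hoxd3 (-1.24, 0.0214) and Hoxb8 (0.77, 0.037) then passed the edgeR test, and Hoxb13 did not (adjusted p = 0.0571). The libraries left out held the highest values of Hoxb4, Hoxc5, Hoxd3 and Hoxb8 in their lines. Leaving them out removes the extremes of these genes, so their calls in this fit are no separate evidence. Hoxa10 (log2 fold change -2.41, adjusted p = 0.000308), Hoxa7 (0.63, 0.00485), Hoxb3 (-0.98, 0.00422), Hoxd8 (-0.43, 0.0163), Hoxd9 (-0.63, 0.0142), Hoxa9 (-2.25, 0.0334) and Hoxc13 (-0.49, 0.0368) stayed called in the edgeR fit of these 4 libraries. With MOSE-PAX8 library 2 alone left out, Hoxb5 also passed (log2 fold change -1.25, adjusted p = 0.0333, edgeR).

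**Figure D5:**
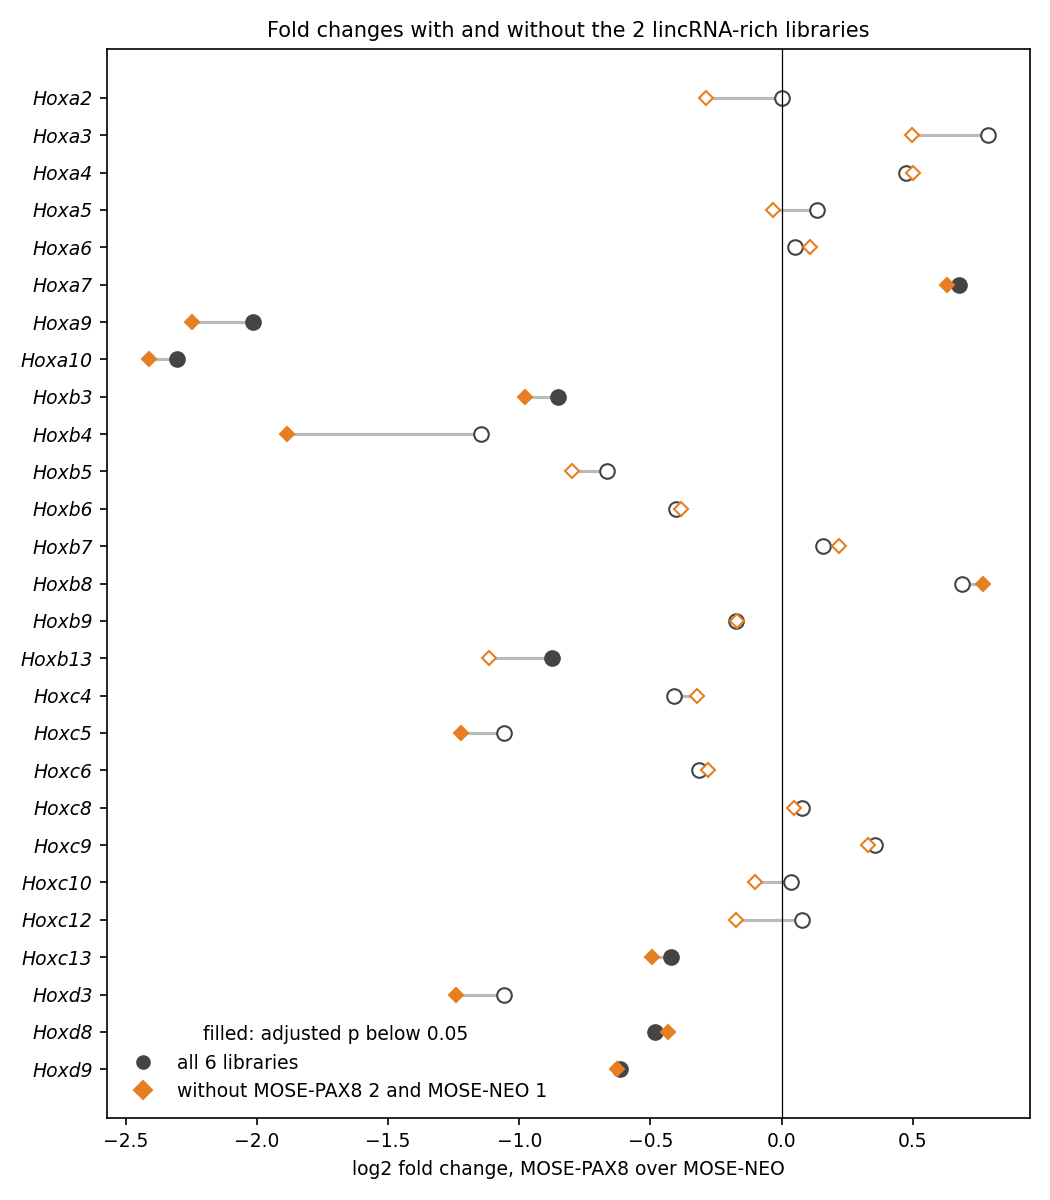
log2 fold change of MOSE-PAX8 over MOSE-NEO for tested Hox genes, with all 6 libraries (circles) and without the 2 lincRNA-rich ones (diamonds), filled where called. Hoxa7, Hoxa10, Hoxd8 and Hoxd9 move little, and Hoxb4 is at -1.15 with all libraries and at -1.89 without those 2.

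Genes around each cluster were called in both directions, beside 17.9% higher and 16.1% lower over all tested genes. Within 5 Mb of the Hoxa cluster on chromosome 6, 9 of 64 other tested genes were higher in MOSE-PAX8 and 7 lower, with a median log2 fold change of 0.08. Around the Hoxd cluster (chr2:74668310-74765142), 5 of 47 were higher and 10 lower, with a median of -0.14. With that local median removed, Hoxd8 (log2 fold change -0.35, adjusted p = 0.0363, edgeR) and Hoxd9 (-0.48, adjusted p = 0.00695, edgeR) stayed called. Around Hoxb (chr11:96194316-96368256) 11 of 142 were higher and 21 lower, and around Hoxc (chr15:102921103-103036852) 15 of 93 were higher and 11 lower, with medians of -0.03 and 0.05. Of the 9 listed genes that flank the Hoxa cluster, not all of them directly beside it, 1 was called. This was Nfe2l3, a CNC-bZIP transcription factor, at 28.3 ± 2.91 CPM in MOSE-PAX8 and 61 ± 7.82 CPM in MOSE-NEO (log2 fold change -1.11, SE 0.11; adjusted p = 0.000183, edgeR). Of 11 tested neighbours of Hoxd, 2 were called in each direction, among them Wipf1, which passed the low-count filter through MOSE-PAX8 alone, Chn1 at 4.37 ± 0.625 CPM in MOSE-PAX8 and 1.36 ± 0.347 CPM in MOSE-NEO (adjusted p = 0.000872, edgeR) and Mtx2, the gene beside the Hoxd1 end, at 134 ± 11.4 and 166 ± 11.1 CPM (adjusted p = 0.029, lost without each of 4 libraries, 0.0676 to 0.0872, edgeR). Of 10 tested Hoxb neighbours 1 was called higher and 2 lower, and of 12 tested Hoxc neighbours 1 was called lower.

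Noncoding genes of the clusters were low. Of 5 tested, Halr1, beside the Hoxa cluster, was called higher, with 4.32, 4.05 and 4.59 CPM in MOSE-PAX8 libraries 1 to 3, against 2.35, 2.65 and 3.09 CPM in MOSE-NEO libraries 1 to 3. The lines did not overlap (log2 fold change 0.68, SE 0.18; adjusted p = 0.0173, edgeR), and the call was lost without any 1 of 3 libraries (0.0544 to 0.0736). Hotairm1, Hoxaas2, Hoxaas3 and Hoxb5os were not called. Hotair had 7 counts in all, and Hottip and Hoxa11os had 0. No counted gene matched Haglr, Haglros, Hoxb3os, Hoxd3os1 or Mira by name, so these could not be analysed here. Of the 6 microRNA hairpin genes in the clusters, Mir196a-1, beside Hoxb9, was the only one with more than 14 counts in all: 55, 90 and 53 counts in MOSE-PAX8 libraries 1 to 3, against 123, 66 and 36 in MOSE-NEO libraries 1 to 3 (adjusted p = 0.494, edgeR). Reads over a hairpin do not measure the mature microRNA.

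The partners and regulators of Hox genes differed in a few members, and their counts stand beside the 33.9% called over all tested genes. Of 8 tested TALE cofactors, 1 was called in each direction, and the median log2 fold change was -0.11. Pbx3 averaged 37.6 ± 1.1 CPM in MOSE-PAX8 and 45 ± 3.64 CPM in MOSE-NEO (SD, n = 3 each; adjusted p = 0.0396, edgeR), a call lost without any 1 of 5 libraries (0.0509 to 0.106). Meis1 averaged 28.5 ± 1.74 CPM in MOSE-PAX8 and 23 ± 5.02 CPM in MOSE-NEO and Meis2 82.5 ± 1.35 and 86.9 ± 9.53 CPM (SD, n = 3 each), neither of them called.

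Of 29 tested Polycomb genes, which encode the proteins that keep silent Hox genes silent, 5 were called higher and 1 lower, with a median log2 fold change of 0.06 (over all tested genes, 17.9% were called higher and 16.1% lower). Eed, a core subunit of the complex PRC2, averaged 43.7 ± 1.96 CPM in MOSE-PAX8 and 33.6 ± 1.2 CPM in MOSE-NEO (log2 fold change 0.38; adjusted p = 0.00495, edgeR). Jarid2, a PRC2 accessory subunit, averaged 83.7 ± 6.94 and 61.8 ± 5.76 CPM (log2 fold change 0.44; adjusted p = 0.00811, edgeR). The one called lower, Phf1, another PRC2 accessory subunit, averaged 24 ± 5.28 CPM in MOSE-PAX8 and 37.7 ± 9.06 CPM in MOSE-NEO (log2 fold change -0.66; adjusted p = 0.0296, lost without any 1 of 3 libraries, 0.091 to 0.103, edgeR). The catalytic subunit Ezh2 averaged 101 ± 5.37 CPM in MOSE-PAX8 and 86.5 ± 6.75 CPM in MOSE-NEO and was not called (adjusted p = 0.0788, edgeR). Of 14 tested trithorax and H3K27 demethylase genes, 4 were called higher and 1 lower. Kdm6a, a demethylase that removes the Polycomb mark, had 52.7, 62 and 54.4 CPM in MOSE-PAX8 libraries 1 to 3, against 31.2, 27.6 and 24.2 CPM in MOSE-NEO libraries 1 to 3, without overlap (log2 fold change 1.03, SE 0.11; adjusted p = 0.00023, edgeR). Ash1l, a histone methyltransferase, averaged 125 ± 17.1 CPM in MOSE-PAX8 and 193 ± 28.7 CPM in MOSE-NEO (log2 fold change -0.63; adjusted p = 0.00704, edgeR). Kmt2a, the methyltransferase that maintains Hox expression, averaged 123 ± 23.9 and 131 ± 27.9 CPM and was not called. With the local median removed, Eed, Ash1l and the methyltransferase Dot1l, which was otherwise called higher, were no longer called.

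Of 12 tested genes of retinoic acid signalling, 3 were called in each direction, with a median log2 fold change of -0.34. Over all tested genes, 17.9% were called higher and 16.1% lower. Aldh1a2, the enzyme that makes retinoic acid in mesothelium and embryo, was among the lower ones, but with its 1 count in MOSE-PAX8 it passed the low-count filter through MOSE-NEO alone. Rdh10, which makes its substrate retinal, had 131, 147 and 213 CPM in MOSE-PAX8 libraries 1 to 3, against 35.1, 35.6 and 41.8 CPM in MOSE-NEO libraries 1 to 3 (log2 fold change 2.13, SE 0.18; adjusted p = 6e-05, edgeR). Aldh1a1, of the same list, averaged 1671 ± 212 CPM in MOSE-PAX8 and 2124 ± 262 CPM in MOSE-NEO. It was lower in every MOSE-PAX8 library but not called (adjusted p = 0.0699, edgeR). Cyp26a1, a retinoic acid target, averaged 0.298 ± 0.227 CPM in MOSE-PAX8 and 0.471 ± 0.172 CPM in MOSE-NEO and was not called. Also without a call were Cyp26b1 (28.5 CPM in MOSE-PAX8, 18.6 CPM in MOSE-NEO), Dhrs3 (52.5 and 43.4 CPM) and Stra6 (11.3 and 14.3 CPM). Of the receptor genes, Rara (43.2 CPM in MOSE-PAX8, 34.2 CPM in MOSE-NEO) and Rxrb (54.8 and 44.9 CPM) were called higher, and Rxra (41.7 and 57 CPM) and Rarg (38.3 and 49.7 CPM) lower. Each of these 4 calls was lost without at least 1 library, with adjusted p-values up to 0.121 (edgeR). Rarb, a classical target, had 0 counts in all libraries. Of 12 factors upstream of the clusters or of the related ParaHox family, 9 had no counts, among them Cdx1 and Cdx4, and Cdx2 had 5 counts in all. Egr2, which activates Hoxa2 and Hoxb2 in the hindbrain of mouse embryos, had 1.75, 1.73 and 1.97 CPM in MOSE-PAX8 libraries 1 to 3, against 0.19, 0.17 and 0.13 CPM in MOSE-NEO libraries 1 to 3 (log2 fold change 3.42, SE 0.30; adjusted p = 7.39e-05, edgeR). Its counts were 64, 55 and 64 in MOSE-PAX8 and 6, 4 and 4 in MOSE-NEO, so it passed the low-count filter through MOSE-PAX8 alone and could be called in 1 direction only. Hoxa2 (0.605 ± 0.269 CPM in MOSE-PAX8, 0.598 ± 0.0886 CPM in MOSE-NEO) was not called, and Hoxb2 (22 and 13 counts) was too low to be tested.

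Other homeobox genes of the Mullerian duct and gonad were mostly low, and none of the 6 tested was called. Irx5 averaged 8.96 ± 0.825 CPM in MOSE-PAX8 and 7.29 ± 0.159 CPM in MOSE-NEO, and Six4 23.6 ± 2.83 and 18.6 ± 3.22 CPM (SD, n = 3 each). Emx2 and Lhx1, both needed for the Mullerian duct in mice, had 1 count each in all 6 libraries.

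Marker lists differed between the lines as well, and their counts stand beside 17.9% called higher and 16.1% lower over all tested genes. Of 15 tested ovarian surface and mesothelial markers, 8 were called lower and 2 higher in MOSE-PAX8. Among the lower ones was Aldh1a2, which passed the low-count filter through MOSE-NEO alone. The list summed to 8814 to 10367 CPM in MOSE-PAX8 and 14691 to 16313 CPM in MOSE-NEO. Of 5 tested markers of stromal fibroblasts 2 were lower, Col3a1 and Thy1, and the list summed to 12414 to 13211 CPM in MOSE-PAX8 and 19967 to 23311 CPM in MOSE-NEO, nearly all of it collagen genes and Dcn. The fibroblast receptor Pdgfra was near 0, with 16 counts over all libraries, and Lum had 15. Of 4 tested granulosa and theca markers 2 were called in each direction. Those called higher include a gene with 1 count in MOSE-NEO. That gene passed the low-count filter through MOSE-PAX8 alone and could be called in 1 direction only. The list summed to 376 to 417 CPM in MOSE-PAX8 and 443 to 543 CPM in MOSE-NEO, mostly Star. Fshr, Lhcgr, Cyp19a1 and Hsd3b1 were at 0. Of 3 tested leukocyte markers 1 was called in each direction, with sums of 8.95 to 10.3 and 9.21 to 17.2 CPM and with Adgre1 at 0. Ptprc, the one called higher, had 196 counts in MOSE-PAX8 and 1 in MOSE-NEO. It passed the low-count filter through MOSE-PAX8 alone and could be called in 1 direction only. The 1 tested endothelial marker was not called, the sums were 0.875 to 1.48 and 1 to 1.73 CPM, and Cdh5 was at 0. The part of these lists in the Hox differences was not tested.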

How the data were processed

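Total RNA gave 3 libraries of each line, and the titles of the samples gave the group and the library number. The authors deposited raw counts of reads, with 1 table of 25006 Ensembl genes for each library. The submitters' processing notes name cutadapt 1.13, STAR, HTSeq 0.6.1p1 and DESeq2 with build mm10. No source used here gives their gene annotation, their strand setting or their rule for reads that align more than once, and counts of overlapping genes are uncertain for that reason. GENCODE M21 supplied symbols, mm10 coordinates (counted from 1) and exon lengths, and held 24942 of the identifiers, all 39 Hox genes among them.

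All genes were fitted together with edgeR 4.0.16 (R 4.3.3) on the deposited counts: quasi-likelihood test, TMM factors, filterByExpr and Benjamini-Hochberg adjustment over 12313 tested genes. Called means an adjusted p below 0.05. Its p-values reflect the spread among the 3 libraries of a line, and that spread may be technical only. Each SE was derived from the fold change and its F statistic. CPM includes the TMM factors, RPKM is CPM per kilobase of all exons, and ± gives the SD. Counting intervals are exact, at 95%, and cover counting error only.

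Some genes that these rules select are not reported here; the other Hox genes are all accounted for. From each list of other genes, the called members of smallest adjusted p, at most 3 in each direction, were eligible for naming, or the 2 most abundant where none was called; other members named were picked after their values were seen. The Hox genes and the lists were chosen with earlier results of these data known.

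Alternatives were RLE and upper-quartile factors, DESeq2 1.42.0, limma-voom (limma 3.58.1), no low-count filter, at least 1 CPM in 3 libraries, a block on the library number, leaving out each library or both lincRNA-rich ones, removing the median fold change within 5 Mb, a test against a fold of 1.5 and, for RPKM, the longest transcript. The exon length free of other genes was added for RPKM after seeing the data. Simulated counts were used to test the fit.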

Additional observations from a re-analysis of the deposited data

How the results depend on the processing

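Of the 8 called Hox genes, Hoxa10 kept its call in every alternative, and Hoxa7, Hoxb3, Hoxd8 and Hoxd9 in every one but the test against a fold of 1.5. That test called 1070 genes (700 higher, 370 lower in MOSE-PAX8) and 1 Hox gene (0 higher, 1 lower). The Hox genes called higher numbered 3 with upper-quartile factors (Hoxa4 and Hoxb8 added) and 3 with DESeq2 (Hoxa3 and Hoxb8 added), 2 with limma-voom, 2 with no low-count filter and 2 without both lincRNA-rich libraries. With 1 library left out at a time, 2859 to 3908 genes were called (1545 to 2065 higher, 1314 to 1843 lower, the lowest without MOSE-PAX8 library 3). Hox calls then numbered 5 to 12 (1 to 2 higher, 4 to 11 lower), with 5 without MOSE-PAX8 library 3 or MOSE-NEO library 2 and 12 without MOSE-PAX8 library 2. Whether the library numbers pair the lines is not stated. Deviations of same-numbered libraries correlated at -0.47, 0.05 and 0.40, and those of other pairs at -0.64 to 0.63. With so few libraries these values cannot decide whether same-numbered libraries were prepared together. With the replicate block 8 Hox genes were called, 2 higher (Hoxa3 added) and 6 lower (Hoxb13 lost), and 3933 genes in all.

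Reversals of sign were confined to genes without a call, Hoxa2, Hoxa5, Hoxa6, Hoxc10, Hoxc12 and the endothelial marker Esam. The log2 fold change of Hoxa2 was -0.0101 with RLE factors, -0.0065 with DESeq2, -0.0869 with limma-voom, -0.0012 with no low-count filter, -0.058 with the replicate block, -0.29 without both lincRNA-rich libraries, -0.0775 with the local median removed, and -0.41 to 0.22 with 1 library left out. Without both lincRNA-rich libraries, Hoxa5 was at -0.0321, Hoxc10 at -0.10 and Hoxc12 at -0.18. With the local median removed, Hoxa6 was at -0.0299 and Hoxc10 at -0.0132. With 1 library left out, Hoxa5 lay between -0.13 and 0.26, Hoxa6 between -0.0871 and 0.25, Hoxc10 between -0.0942 and 0.0982, Hoxc12 between -0.11 and 0.34, and Esam between -0.49 and 0.0852. Their causes were not tested. Over the exon length free of other genes, Hoxd3 was at 20 RPKM in MOSE-PAX8 and 41.7 RPKM in MOSE-NEO, and Hoxb3 at 4.35 and 7.85 RPKM. Such values are too high if reads from shared exons were counted for these genes. Counts were few or 0 for the 11 untested genes and few for Hoxa9, which the filter of 1 CPM in 3 libraries left out together with Hoxa2.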
